A study of Rattus norvegicus with 6 samples.

Results

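The genes described here encode ligands and receptors of the PDGF, FGF and VEGF families of growth factor signalling, as they were read in NRK-52E cells, an established epithelial line from the kidney tubule of the rat. They are 10 genes chosen by name: the ligand genes Pdgfa, Pdgfb, Pdgfc, Fgf2, Vegfa and Vegfc and the receptor genes Pdgfra, Pdgfrb, Fgfr1 and Fgfr2. Of these, 9 (5 ligands and 4 receptors) were read by 17 probe sets that the array's annotation pairs with a single gene, out of 14217 genes and 31042 probe sets in all. Pdgfb had no such probe set and was not analysed here. The 6 Affymetrix arrays formed 2 groups of 3, which the labels call biological replicates of the one cell line. Every culture was stimulated with recombinant TGF-β1 at 10 ng/mL for 24 h, so both groups carry that treatment, and no unstimulated cells were analysed here. The AMPKα2 shRNA group had received a lentivirus with a hairpin that targets a catalytic subunit of the energy-sensing kinase AMPK, AMPKα2, and the control group had received a control lentivirus.

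PDGF, FGF and VEGF ligands are secreted proteins that bind receptor tyrosine kinases on the cell surface. Ligand binding brings receptor chains together, and the phosphorylated receptor recruits adaptors that start the RAS-ERK and PI3K-AKT cascades. In the kidney, tubule epithelium is a source of PDGF and VEGF ligands that act on neighbouring fibroblasts, pericytes and endothelium, and PDGF receptors are best known from the fibroblasts and pericytes that deposit matrix.

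The values are log2 expression as the authors deposited them, and every difference below is the mean of the AMPKα2 shRNA arrays minus the mean of the control arrays. Each gene is given by its main probe set, the one with the highest mean over the 6 arrays, and a difference passed when limma's adjusted p over all genes was under 0.05. The values of the AMPKα2 shRNA arrays were spread less widely over probe sets (SD 1.76 to 1.82) than those of the control arrays (SD 2.17 to 2.19). Genes of low control level therefore tended to be higher and genes of high control level lower: the median change was 0.81 among 1899 genes at a control level of 5 to 6 and -0.74 among 2172 genes at 8 to 9. The change of each gene is thus set beside that of the 500 genes nearest to it in control level. Prkaa2, the gene of AMPKα2, ranged from 6.49 to 6.76 with the hairpin and from 6.79 to 6.89 in the control, and its difference of -0.21 did not pass (limma, adjusted p = 0.0552), so the groups are named as labelled. Since the deposited spread differed, each change was also computed under quantile scaling (quantile normalization), loess scaling (cyclic loess) and median scaling (each array centred on its median). Prkaa2 had -0.053 and -0.15 under quantile and loess scaling, which did not pass, and -0.42 under median scaling, which passed as lower (limma, adjusted p = 0.00145). In such bulk RNA, fewer cells in a given state and less RNA per cell cannot be told apart.

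Most of the 9 genes differed between the groups, and by their main probe sets Vegfc, Pdgfc and Fgfr2 stood farthest above other genes of their level. With the mean of each gene's probe sets Vegfc and Pdgfc still did, by 1.33 and 1.10, while Vegfa came next with 0.51 and Fgfr2 had 0.044. Of the 9, 6 rose (Pdgfc, Fgf2, Vegfc, Pdgfra, Pdgfrb and Fgfr2), 2 were lower (Pdgfa and Vegfa, whose direction turned under quantile and loess scaling) and Fgfr1 did not pass. Among all genes 43.6% passed as higher and 41.5% as lower, so the number that passed is close to that of genes at large. The groups did not overlap in 8 of the 9 genes and in 87.1% of all genes. The median change was 0.48 over the 9 genes and 0.05 over all genes. Set beside genes of like control level, with the sign of change counted, 7 of the 9 lay above the median of those genes. For Pdgfa and Vegfa this meant a smaller fall than the median. The changes of 4 genes (Pdgfc, Vegfc, Pdgfrb and Fgfr2) lay above the upper quartile of their neighbours, that of Pdgfrb by little (1.11 against 1.08). With the mean of probe sets Pdgfrb was -0.047 from the median of genes of like level.

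**Figure D1:**
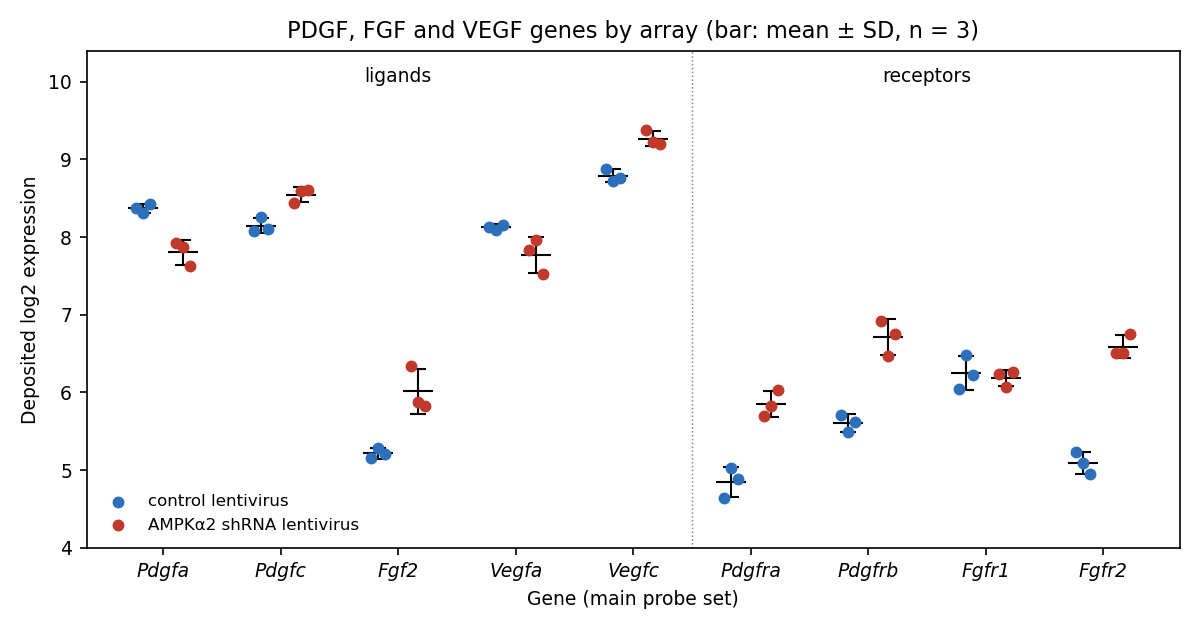
Deposited log2 expression (vertical axis) of the main probe set of each of the 9 measured genes (horizontal axis) on 3 control arrays (blue) and 3 AMPKα2 shRNA arrays (red), with the mean and SD of each group in black. The groups are apart in every gene but Fgfr1, with Pdgfa and Vegfa lower and the others higher on the AMPKα2 shRNA arrays. Levels of different genes come from different probes and cannot be set against each other.

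Vegfc encodes the ligand of VEGF receptor 3, best known for the growth of lymphatic vessels. It read 8.88, 8.73 and 8.77 on the control arrays and 9.37, 9.23 and 9.21 on the AMPKα2 shRNA arrays. All the AMPKα2 shRNA arrays lay above all the control arrays. Vegfc rose by 0.48 (SE 0.09, limma, adjusted p = 0.000404), or 1.39-fold. Genes of its control level, 8.67 to 8.91, moved the other way, with a median change of -0.89 and quartiles of -1.42 and -0.47. The change of Vegfc was 1.37 above that median and, with its sign counted, higher than that of 97.8% of those 500 genes. Vegfc rose under each of the other scalings as well, by 1.20 (quantile), 1.20 (loess) and 0.26 (median).

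Pdgfc encodes a PDGF ligand that is secreted in latent form and signals mainly through PDGF receptor alpha once a protease has removed its CUB domain. It read 8.08, 8.25 and 8.10 on the control arrays and 8.44, 8.59 and 8.61 with the hairpin, so that the groups were apart. Pdgfc rose by 0.40 (SE 0.09, limma, adjusted p = 0.00148), or 1.32-fold. The median change of genes of its level was -0.65, and Pdgfc was 1.05 above it, with a higher signed change than 92% of them. Under quantile and loess scaling its rises were 1.09 and 1.08, and the 0.19 under median scaling did not pass.

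Pdgfa encodes the A chain of PDGF, a ligand that also binds PDGF receptor alpha. Its values were 8.38, 8.31 and 8.43 in the control and 7.93, 7.87 and 7.62 with the hairpin. Every AMPKα2 shRNA array was lower than every control array, and the difference was -0.57 (SE 0.10, limma, adjusted p = 0.000253). That is close to what genes of its level did. Their median change was -0.63, and Pdgfa was 0.06 above it, a slightly smaller fall, with a higher signed change than 54% of them. The change of Pdgfa was 0.089 under quantile scaling and 0.066 under loess scaling, where it did not pass, and -0.78 under median scaling, where it passed. The 2 PDGF ligand genes thus had opposite directions as deposited, at control levels within a range where genes at large were lower.

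Vegfa encodes VEGF-A, the main growth factor of blood vessel endothelium, whose transcripts are spliced into several forms. Its main probe set read 8.13, 8.09 and 8.16 in the control and 7.83, 7.96 and 7.52 with the hairpin, a difference of -0.36 (SE 0.11, limma, adjusted p = 0.0120). Replicate 3 of the AMPKα2 shRNA group was the lowest and gave that group an SD of 0.23 against 0.04 in the control, and without it the difference was -0.23. The other probe set read 6.97, 7.11 and 7.02 in the control and 7.57, 7.33 and 7.28 with the hairpin, a difference of 0.36 (SE 0.10, limma over all probe sets, adjusted p = 0.00687). Both probe sets separated the groups, and they did so in opposite directions. Their mean changed by 0.000305, which did not pass. Under quantile scaling the main probe set had 0.27 and the other 0.76, under loess scaling they had 0.24 and 0.67, and under median scaling -0.57 and 0.14. The other probe set thus had the higher change in all 4 scalings, while the sign of the main one depended on the scaling. Genes of like control level had a median of -0.63, and the main probe set was 0.27 above it.

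Fgf2 encodes basic fibroblast growth factor, a ligand without a classical secretion signal. It read 5.16, 5.29 and 5.21 in the control and 6.34, 5.88 and 5.82 with the hairpin. The arrays with the hairpin were all higher, replicate 1 most of all, and Fgf2 rose by 0.80 (SE 0.13, limma, adjusted p = 0.000158). Genes of its level rose about as much, with a median of 0.83, from which Fgf2 differed by -0.03 (-0.21 without replicate 1 of the AMPKα2 shRNA group and 0.066 without its replicate 3). It rose by 0.49 under quantile and 0.58 under median scaling, while the 0.28 under loess scaling did not pass (limma, adjusted p = 0.0901).

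**Figure D2:**
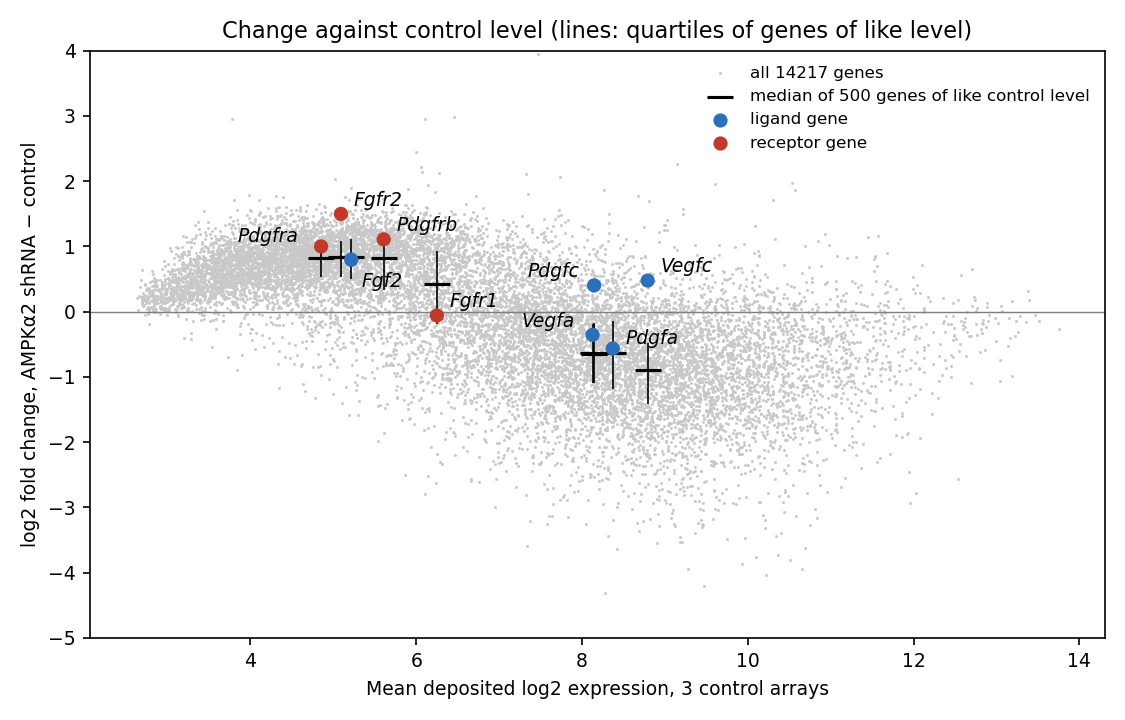
Log2 fold change (vertical axis) against the mean of the control arrays (horizontal axis) for all genes (grey) and for the ligand (blue) and receptor (red) genes, each with the median (dash) and quartiles (line) of the 500 genes nearest in control level. Vegfc and Pdgfc lie above zero where genes of like level have medians of -0.89 and -0.65, and Fgfr2 lies above the quartiles of its neighbours.

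By its main probe set, Fgfr2 had the largest change of the 4 receptors, and with the mean of probe sets Pdgfra did. It encodes FGF receptor 2, whose epithelial splice form binds FGF7 and FGF10. The main probe set read 5.24, 5.09 and 4.95 in the control and 6.51, 6.50 and 6.76 with the hairpin. The groups were far apart compared with their SDs, 0.14 in each. Fgfr2 rose by 1.50 (SE 0.11, limma, adjusted p = 2.93e-07), or 2.83-fold, and by 1.36, 1.07 and 1.28 under quantile, loess and median scaling. Genes of its level had a median change of 0.83. Fgfr2 was 0.67 above it, with a higher signed change than 97.8% of them. This main probe set has the highest mean over the 6 arrays through its values with the hairpin (mean 6.59). On the control arrays another probe set of Fgfr2 read higher, with a mean of 5.20 against 5.09, and that one changed by 1.10. The distance and rank given for Fgfr2 thus depend on the choice of probe set.

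Fgfr1 encodes FGF receptor 1, the form that mesenchymal cells mainly use. It read 6.04, 6.48 and 6.23 in the control and 6.24, 6.07 and 6.26 with the hairpin, and the groups overlapped. Its difference of -0.06 (SE 0.12) did not pass (limma, adjusted p = 0.645). Genes of its level had a median change of 0.42, and Fgfr1 was below it by a difference of -0.48. Its signed change was higher than that of 28.6% of them. Under quantile scaling the difference of -0.16 did not pass, and under loess (-0.30) and median scaling (-0.27) it passed as lower. The other probe set of Fgfr1, at a control level of 4.53, had a difference of -0.02 that did not pass either.

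Pdgfra and Pdgfrb encode the alpha and beta receptor chains of PDGF. Pdgfra read 4.65, 5.03 and 4.88 in the control and 5.70, 5.82 and 6.04 with the hairpin, and Pdgfrb read 5.71, 5.49 and 5.62 in the control and 6.92, 6.47 and 6.76 with the hairpin. In both genes all AMPKα2 shRNA arrays were above all control arrays. Pdgfra rose by 1.0 (SE 0.12, limma, adjusted p = 1.51e-05) and Pdgfrb by 1.11 (SE 0.12, limma, adjusted p = 6.38e-06). Genes of like level had median changes of 0.82 for both. Pdgfra was 0.18 and Pdgfrb 0.29 above the median. The distance of Pdgfra was 0.034 without control replicate 1, 0.10 without replicate 3 of the AMPKα2 shRNA group and 0.29 without control replicate 2. Both passed as higher in each scaling, with 0.64, 0.42 and 0.78 for Pdgfra and 1.07, 0.83 and 0.89 for Pdgfrb under quantile, loess and median scaling.

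The number of probe sets that passed differed between the receptor genes. Of the probe sets of all genes, 47.8% passed as higher and 34.1% as lower. All 5 probe sets of Fgfr2 passed as higher as deposited, with changes of 1.50, 1.10, 0.80, 0.36 and 0.27 and control levels of 5.09, 5.20, 4.41, 3.77 and 3.38. The 2 of lowest level did not pass under quantile scaling (-0.058 and -0.059) or loess scaling (-0.074 and -0.071), nor did the one with 0.80 (0.35 and 0.22). The main probe set and the one with 1.10 passed as higher in all 4 scalings. Of the 3 probe sets of Pdgfrb, the main one rose by 1.11 and another by 0.97, while the one at a control level of 4.34 had 0.15 and did not pass. The 2 that rose have the same target sequence in the annotation, so they are not separate targets. The probe set at 4.34 has another target, and it passed as lower under quantile (-0.31) and loess scaling (-0.37). The mean of the probe sets changed by 0.81 for Fgfr2 and by 0.74 for Pdgfrb, values that were 0.044 and -0.047 from the medians of genes of like level. The distance of Fgfr2 and Pdgfrb above their neighbours was thus seen with the main probe sets and not with the mean of all. Pdgfa, Pdgfc, Pdgfra, Fgf2 and Vegfc had 1 probe set each.

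**Figure D3:**
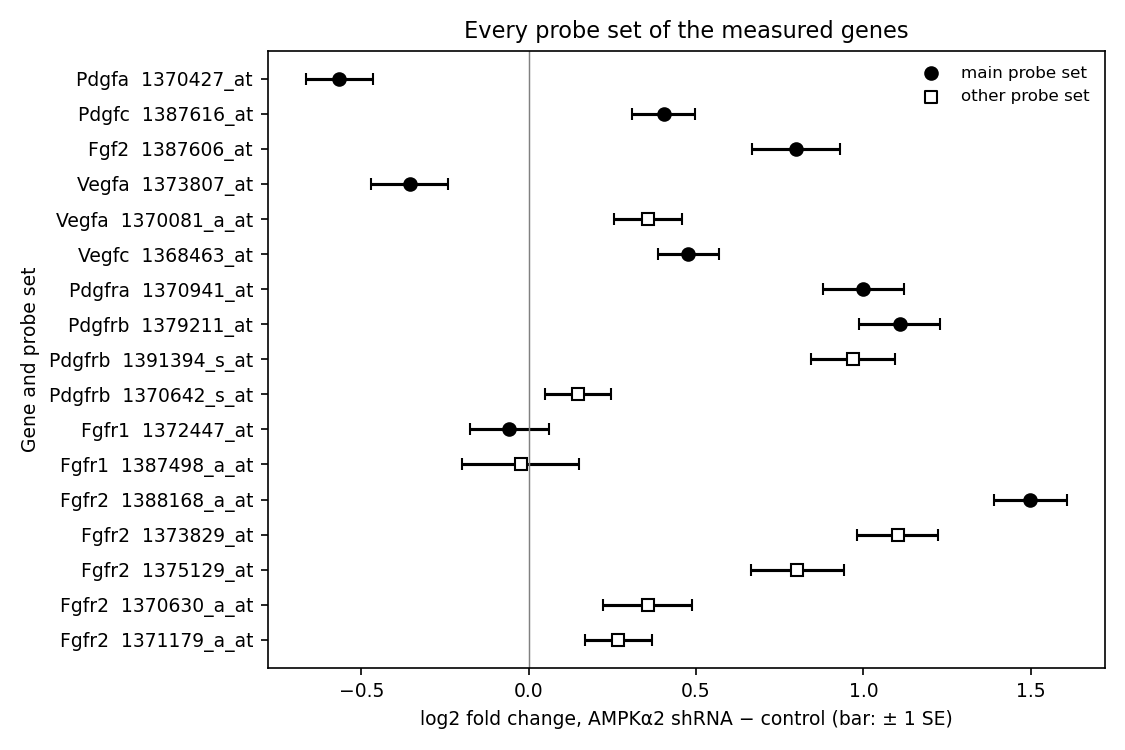
Log2 fold change with its SE (horizontal axis) of all 17 probe sets of the 9 genes (vertical axis), with the main probe set of each gene filled. The probe sets of Vegfa have -0.36 and 0.36, and those of Fgfr2 run from 0.27 to 1.50.

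The scaling of the arrays moved the changes of single genes but hardly their place among genes of like level. The median change of all genes was 0.16 under quantile, 0.09 under loess and -0.17 under median scaling. Under quantile scaling 7 of the 9 genes passed as higher and 0 as lower (limma), where 43.8% and 28.9% of all genes did, and Pdgfa and Fgfr1 did not pass. At an unadjusted p under 0.05, 0 were lower there. Under loess scaling 6 passed as higher and 1, Fgfr1, as lower, where 40.2% and 31.5% of all genes did. Under median scaling 5 passed as higher and 3 as lower, where 35.0% and 48.2% of all genes did. Over the 9 genes, the median of the change beside genes of like level was 0.27 as deposited and 0.29, 0.32 and 0.27 under quantile, loess and median scaling. Vegfc kept a distance of 1.37 to 1.46 and Pdgfc one of 1.05 to 1.19 in these 4 scalings.

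**Figure D4:**
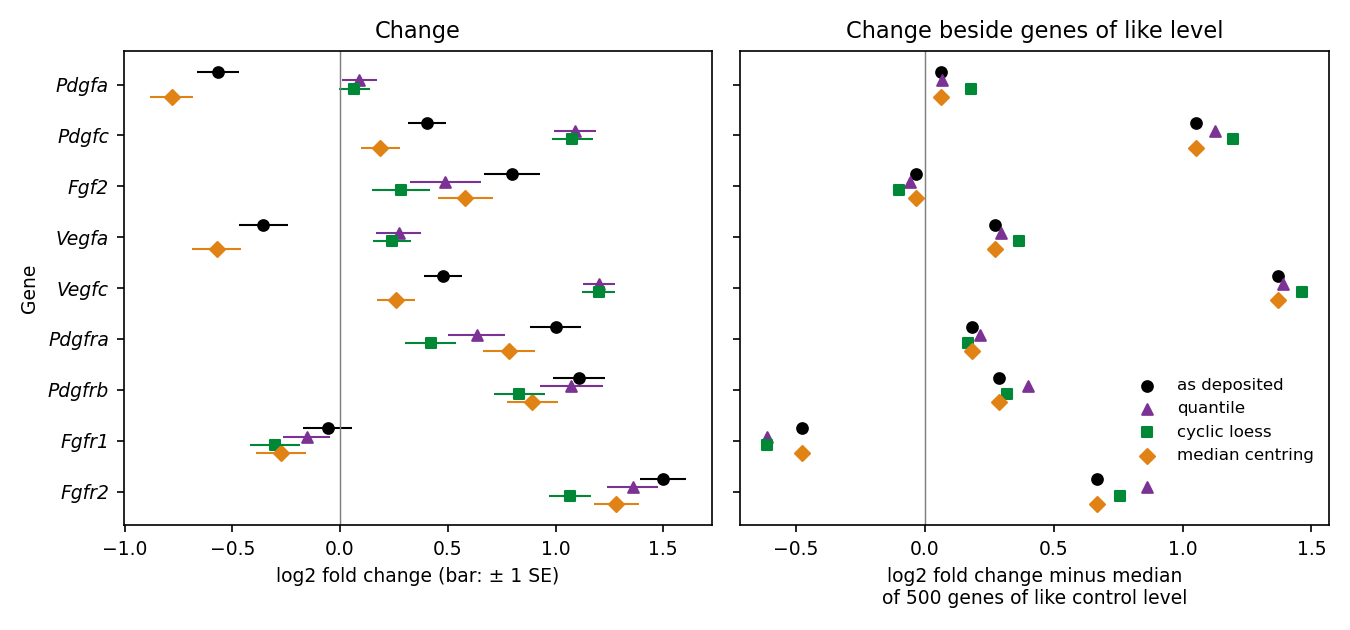
Log2 fold change with its SE (left) and the same change minus the median of 500 genes of like control level (right) for the 9 genes under 4 scalings. On the left Pdgfa and Vegfa change sign between scalings, while on the right Vegfc stays between 1.37 and 1.46 and Fgfr1 between -0.61 and -0.48.

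The sequences before the start sites are shown for Vegfc and Fgfr2, the genes whose change by the main probe set exceeded that of 97.8% of genes of like level, and for Vegfa, whose probe sets disagreed. They are 250 bases before the annotated start, from RefSeq on assembly GRCr8, each in the direction of its gene, with the GC box GGGCGG or its reverse complement CCGCCC in capitals. The lines give Vegfc on the minus strand (chr16:44560888-44561137), Fgfr2 on the minus strand (chr1:194280915-194281164) and Vegfa on the plus strand (chr9:22452604-22452853), the first of 2 annotated starts.
Vegfc: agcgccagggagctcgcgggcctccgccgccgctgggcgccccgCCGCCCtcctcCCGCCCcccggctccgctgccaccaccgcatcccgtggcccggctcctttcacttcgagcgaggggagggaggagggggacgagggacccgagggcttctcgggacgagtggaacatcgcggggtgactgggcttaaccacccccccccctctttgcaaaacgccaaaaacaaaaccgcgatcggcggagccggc
Fgfr2: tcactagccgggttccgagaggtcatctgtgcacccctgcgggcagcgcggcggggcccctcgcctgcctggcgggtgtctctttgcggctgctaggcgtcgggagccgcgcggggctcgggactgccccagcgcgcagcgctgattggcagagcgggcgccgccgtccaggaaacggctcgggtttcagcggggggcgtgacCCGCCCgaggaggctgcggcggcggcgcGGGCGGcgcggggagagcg
Vegfa: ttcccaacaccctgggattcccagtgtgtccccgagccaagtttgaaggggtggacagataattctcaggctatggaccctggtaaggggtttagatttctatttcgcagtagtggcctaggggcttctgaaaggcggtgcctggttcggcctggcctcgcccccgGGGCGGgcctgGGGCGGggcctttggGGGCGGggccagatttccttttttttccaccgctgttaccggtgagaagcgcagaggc
The window of Vegfc held 2 GC boxes, that of Fgfr2 held 2 and that of Vegfa held 3, while the window of the other Vegfa start held 0. RefSeq windows were found for 8 of the 10 genes, and 5 of them, the 3 above with Pdgfa and Pdgfb, had a GC box. Of 33469 windows of this length for all genes, 30.5% had one. That share counts windows and not genes, and the 8 genes had 9 windows. The windows of Pdgfc, Pdgfra and Fgf2 held 0. A link between these letters and the changes was not tested.

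Of the other ligand genes in these families, 13 were measured, of which 9 rose, 3 were lower and 1 did not pass. Among all genes 43.6% were higher and 41.5% lower. The median change of the 13 was 0.58. Their median control level was 5.31, and genes at 5 to 6 had a median change of 0.81. Under quantile scaling 7 of the 13 passed as higher and 2 as lower, where 43.8% and 28.9% of all genes did. Their median there was 0.27. As deposited, 7 of the 13 lay above the median of genes of like level. Fgf9, which encodes a secreted FGF, and Fgf23, which encodes the phosphate-regulating hormone of bone, rose by 1.06 and 1.06 from low control levels of 4.40 and 3.71. They rose by 0.46 and 0.57 under loess scaling. Fgf18 fell by 1.84 (SE 0.12, limma, adjusted p = 2.02e-07), to 4.60 from a control level of 6.44. Its change was -2.09 beside genes of like level and -2.06 under quantile scaling. Vegfb, a ligand of VEGF receptor 1, fell by 1.17 and by 1.04 under quantile scaling.

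Of 13 measured genes for other receptors and co-receptors, 7 rose, 5 were lower and 1 did not pass, at a median of 0.31 as deposited and 0.02 under quantile scaling. Among all genes 43.6% were higher and 41.5% lower. Fgfrl1, a receptor-like protein that binds FGF but lacks a kinase domain, rose by 0.93 (SE 0.09, limma, adjusted p = 2.23e-06) from a control level of 7.59. It was 1.36 above genes of like level and rose by 1.54 under quantile scaling. Flt1, which encodes VEGF receptor 1, rose by 0.86, which was 0.06 above the median of genes of its level. The heparan sulfate carriers Sdc4 and Sdc1, syndecans that hold FGF at the cell surface, had changes of -1.57 and -1.27, and of -1.22 and -0.64 under quantile scaling. The other probe set of Sdc1 passed as lower as deposited, with -2.78.

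Of 19 measured adaptor and early signalling genes, 3 rose, 15 were lower and 1 did not pass, at a median of -0.78, where 43.6% of all genes were higher and 41.5% lower. Their median control level was 8.43, and genes at 8 to 9 had a median change of -0.74. Beside genes of like level, 7 of the 19 lay above the median, with a median difference of -0.28. Under quantile scaling 5 were higher and 10 lower, with a median of -0.39. Crk and Shc1, which encode adaptors that bind phosphorylated receptors or their substrates, had changes of -2.04 and -1.74, and of -1.32 and -1.10 under quantile scaling. Pik3r2, a regulatory subunit of PI3-kinase, rose by 0.88 and Crkl, a CRK-like adaptor, by 0.62. The other probe set of Pik3r2 had -0.15, which did not pass.

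Of 8 measured genes of the RAS-ERK and AKT cascade, 0 rose, 7 were lower and 1 did not pass. Among all genes 43.6% were higher and 41.5% lower. The median change of the 8 genes was -1.30 as deposited and -0.65 under quantile scaling, where 1 of them passed as higher (limma). They had control levels of 8.17 to 11.05, where genes at large were lower, and 2 of the 8 lay above the median of genes of like level. Akt1 and Nras, which encode a survival kinase and a RAS GTPase, had changes of -2.51 and -2.44, and of -1.85 and -1.90 under quantile scaling. Their probe sets disagreed: the others of Akt1 ran from -2.79 to 0.69, and that of Nras had 0.26, which did not pass.

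Of 10 measured feedback inhibitors, 2 rose and 8 were lower, with a median of -0.71 as deposited and -0.30 under quantile scaling, where 2 were higher and 5 lower. Of all genes 43.6% were higher and 41.5% lower as deposited. Genes at a control level of 8 to 9, which holds the median of these 10 (8.29), had a median change of -0.74. Beside genes of like level 3 of the 10 lay above the median, with a median difference of -0.23. Sh2b3, an adaptor that dampens receptor signalling, fell by 2.07, and Dusp6, the ERK phosphatase that FGF signalling induces, fell by 1.22 and by 0.72 under quantile scaling. Spry4, a Sprouty inhibitor of receptor signalling, rose by 0.47 and was 1.12 above genes of its level. Dusp4, another phosphatase of MAP kinases, rose by 0.81, which was -0.02 from the median of genes of its level.

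Of 7 measured genes of oxygen sensing, which controls Vegfa transcription, 3 rose, 3 were lower and 1 did not pass, the median being -0.14 as deposited and 0.04 under quantile scaling. Among all genes 43.6% were higher and 41.5% lower. Hif1a and Epas1, which encode the oxygen-regulated subunits of HIF-1 and HIF-2, went opposite ways. Hif1a fell by 1.29 and Epas1 rose by 1.20, and they had -0.68 and 1.08 under quantile scaling. The prolyl hydroxylase genes, whose products mark HIF for degradation, were split too, with -1.88 for Egln1 and 0.49 for Egln2, though the other probe set of Egln1 rose by 1.09.

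Of 11 measured genes that process or release ligands, 5 rose, 5 were lower and 1 did not pass, the median being 0.11 as deposited and 0.23 under quantile scaling. Among all genes 43.6% were higher and 41.5% lower. Hpse, the heparanase that frees heparin-bound FGF and VEGF from matrix, fell by 2.56 (SE 0.14, limma, adjusted p = 5.18e-08) and by 2.17 under quantile scaling. Sulf2, a sulfatase that trims heparan sulfate, had -1.86 as deposited and -1.21 under quantile scaling. Plau, the urokinase gene, and Fgfbp1, which encodes an FGF carrier, rose by 0.83 and 0.69, and their changes of 0.25 and 0.12 under loess scaling did not pass.

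The markers of fibroblasts and pericytes include Pdgfra and Pdgfrb themselves, so that the list is in part the receptors already described. All 10 rose as deposited and under quantile scaling, with medians of 0.97 and 0.74, where 43.6% and 43.8% of all genes did. Under loess scaling 8 rose, while Dcn and Cspg4 did not pass, and the median was 0.60. As deposited, 9 of the 10 lay above the median of genes of like level. So did 5 of 7 endothelial, 5 of 6 leukocyte, 5 of 11 tubule epithelium and 0 of 3 podocyte markers. The summed level of the fibroblast and pericyte markers, the log2 of the sum of linear values, was 10.02 to 10.03 on the control arrays. With the hairpin it was 11.45 to 11.63. Most of that sum came from Col3a1 and Col1a1. Col1a1 and Col3a1, the fibrillar collagen genes of this list, had its largest rises (2.98 and 1.49). They stood at 6.46 and 9.21 in the control and 9.44 and 10.71 with the hairpin. Dcn and Lum stood at 5.05 and 2.83 in the control and 5.78 and 3.40 with the hairpin. Of 11 measured tubule epithelium markers, 9 rose, 1 was lower and 1 did not pass, and their sum was 12.55 to 12.62 in the control and 12.35 to 12.50 with the hairpin. That sum is nearly all Krt8, the marker that was lower, which had a mean of 12.49 in the control and 12.24 with the hairpin. Of the others, Aqp1 rose by 1.39, Pax8 by 1.20, Epcam by 0.50, Cdh1 by 0.43 and Krt18 by 0.32 as deposited. The last 3 did not pass under quantile scaling. Krt19 went the other way. Its -0.17 as deposited did not pass, and it passed as lower under quantile (-0.62), loess (-0.73) and median scaling (-0.38). With no signal over background and different probes, these levels do not show which epithelial markers were present. Of 7 endothelial markers, 6 rose, with Pecam1 at 2.96 in the control and 3.73 with the hairpin and a sum of 7.33 to 7.53 and 8.05 to 8.31. Of 6 leukocyte markers 5 rose, at control levels under 6 for those 5, and Cd14 was lower. The leukocyte sum, mostly Cd14, was 10.85 to 10.94 in the control and 9.56 to 9.73 with the hairpin. Of 3 podocyte markers, 1 rose, 1 was lower and 1 did not pass. Their sum was 8.54 to 8.65 in the control and 7.65 to 8.27 with the hairpin. The part of these markers in the receptor values was not tested.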

How the data were processed

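Total RNA was extracted with Trizol and labelled with biotin by an Affymetrix one-cycle kit, per the labels' protocols. The authors deposited log2 values, 1 per probe set and array. For these values, background correction, probe summary and normalization are not given in the sources used here. Precision is limited by the number of arrays, and no signal over background was given. Of 31099 probe sets, 57 array controls were left out. Of the rest, 20826 had 1 gene in the platform annotation, 436 several and 9780 none. The RefSeq table (GRCr8) matched 20758 of them by Entrez identifier and changed 0 symbols.

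Differences were tested by linear models in limma (version 3.58.1, R version 4.3.3; lmFit and eBayes, 2-sided, no covariate, no filter), with Benjamini-Hochberg adjustment over all 14217 genes, 1 probe set per gene (highest mean). Genes of like level are the 500 nearest in control mean, without the 10 genes described. The genes named are those 10, Prkaa2 and, from each pathway list, up to 2 rises and 2 falls with the largest change among genes that passed with groups apart, and the 3 nearest in pattern to the genes with the largest rise and fall. Marker genes named singly were picked from the marker lists after their values were seen. Likeness of pattern was the root mean square difference of centred values over 6 arrays. The genes, lists and alternatives were chosen with earlier results of these data known. An exact permutation test of 3 arrays against 3 cannot give a 2-sided p under 0.1. In data simulated for this comparison on 14217 genes with 200 changed, 87% of 2-fold and 42% of log2 0.5 changes were recovered and 4 unchanged genes passed. In the real data far more genes passed, 43.6% as higher and 41.5% as lower. The adjusted p threshold there lies at a larger unadjusted p, so the simulated rates do not describe the real comparison. Same-numbered replicates of the groups did not deviate together (correlations of -0.02, 0.01 and -0.10), so the numbers were not used as pairs. Alternatives were other scalings, filters, probe set rules, a floor, variance models, array weights, a replicate block, leaving out each array, other thresholds and other neighbour rules.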

Additional observations from a re-analysis of the deposited data

How the results depend on the processing

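The 6 genes that passed as higher were 2 of 4 tested without the lowest 50% of genes and 3 when at least a 2-fold change was asked for. The 4 tested were Pdgfa, Pdgfc, Vegfa and Vegfc. That filter thus left out Fgf2 and all the receptor genes. The rises of Fgf2, Pdgfra, Pdgfrb and Fgfr2 were read in the lower 50% of genes, as was Fgfr1, which did not pass as deposited. A filter of the lowest 25% left out Pdgfra. The number that passed as lower, 2 as deposited (Pdgfa and Vegfa), was 0 after quantile normalization (limma) and 0 at a 2-fold change. It was 1 after cyclic loess, where that gene was Fgfr1 and neither Pdgfa nor Vegfa was lower, and 1, Pdgfa, with the mean of probe sets and at an adjusted p of 0.01. The median change of 0.48 was 0.64 after quantile normalization, 0.26 after median centring and 0.024 without the lowest 50% of genes, and the median beside genes of like level (0.27) was 0.66 without the lowest 50% and 0.085 with the mean of probe sets. The change of Pdgfa turned to 0.089 after quantile normalization and 0.066 after cyclic loess. That of Vegfa turned to 0.27 and 0.24 there, to 0.000305 with the mean of probe sets and to 0.36 with its other probe set. With an intensity trend, robust eBayes, array weights or a replicate block, 6 genes passed as higher and 2 as lower, and leaving out each array in turn gave 6 and 2 each time, with a median change of 0.46 to 0.52. The replicate block gave Vegfa a change of -0.36 (limma, adjusted p = 0.00759). Only numbers, not a shared origin, link the replicates. Without 1 array the change of Vegfa ran from -0.45 to -0.23, and that of Fgfr1, which did not pass, from -0.16 to 0.06. The causes of these differences were not tested, except that the filters tested fewer genes.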

Other observations

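Over the 6 arrays, with each gene centred on its own mean, the genes nearest in pattern to Fgfr2 were Pde2a, Agap3 and Tmem42. Pde2a, which encodes a cyclic nucleotide phosphodiesterase, differed from Fgfr2 by a root mean square of 0.009 and rose by 1.51, while Agap3 and Tmem42 differed by 0.049 and 0.051. The genes nearest to Pdgfa were C2h1orf52, Yipf5 and Cramp1, with root mean squares of 0.025, 0.030 and 0.033. Within 0.1 of Fgfr2 lay 66 genes, and within 0.1 of Pdgfa 640.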
